A study of Mus musculus with 4 samples.

Results

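Conventional type 1 dendritic cells (cDC1) were 254 of the 28429 CD45+ cells that the authors kept from EO771 mammary tumors. They were chosen by measured values. A cell was counted as cDC1 if it held at least 2 unique molecular identifiers (UMIs, which count captured RNA molecules) of *Xcr1* and *Clec9a* together, at most 1 UMI of *Fscn1* and no UMI of *Cd3d*, *Cd3e* or *Cd3g*. It also had to hold under 300 UMIs of *S100a8* and *S100a9* and under 20 of *C1qa*, *C1qb* and *C1qc* per 10000 UMIs, which set aside cells with the RNA of neutrophils and of C1q macrophages. The cells came from 4 tumors of 4 female mice on a C57BL/6 background, 2 *Csf1rfl/fl* and 2 *Lyve1CreCsf1rfl/fl*, and every mouse carried the floxed *Csf1r* alleles. In *Lyve1CreCsf1rfl/fl* mice, Cre recombinase is driven by *Lyve1*, so that cells that have used the *Lyve1* promoter lose *Csf1r*, the receptor for colony-stimulating factor 1. This includes LYVE-1+ macrophages and, outside the CD45+ gate, lymphatic endothelium. EO771, a mammary carcinoma line from C57BL/6 mice, was injected into the mammary fat pad, and tumors were taken at 1.5 cm3. No treatment was given, and the age of these mice is not given in the sources used here. Viable CD45+ cells were sorted and loaded on 2 Chromium runs. A run held the cells of 1 *Csf1rfl/fl* and 1 *Lyve1CreCsf1rfl/fl* tumor, and a cell was given to the tumor whose hashtag antibody it carried more of. Below, paired values of a genotype are in the order run 1, run 2.

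cDC1 are the dendritic cells that take up dead cells and present their antigens on MHC class I to CD8+ T cells, a route called cross-presentation. Their development depends on the transcription factors IRF8 and BATF3, with ID2, and on the growth factor receptor FLT3. XCR1 receives the chemokine XCL1 from T and NK cells, and CLEC9A binds actin filaments exposed by dying cells. In tumors, cDC1 are known for carrying antigen to the draining lymph node and for CXCL9 and interleukin-12, which draw in and sustain CD8+ T cells. The genes of the gate and of the label lie on several chromosomes of GRCm38 (mm10). *Xcr1* is at chr9:123852315-123862029 on the minus strand, *Clec9a* at chr6:129408862-129424763 on the plus strand and *Batf3* at chr1:191097847-191108945 on the plus strand. *Irf8* is at chr8:120736358-120756694 on the plus strand and *Flt3* at chr5:147330741-147400489 on the minus strand.

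The *Csf1rfl/fl* tumors gave 55 and 113 cDC1 and the *Lyve1CreCsf1rfl/fl* tumors 56 and 30, of 8613, 7786, 7248 and 4771 kept cells with a hashtag majority. The cDC1 held more UMIs per cell than the other cells, with medians of 11006 to 13383 in the 4 tumors against 3718 to 4668 over all kept cells. The median rose with the UMIs of *Xcr1* and *Clec9a* that chose the cells, from 8998 at 2 UMIs to 15003 at 6 or more. Summed over cells they held 782578 and 1409100 UMIs in *Csf1rfl/fl* and 657643 and 382739 in *Lyve1CreCsf1rfl/fl*, so the *Lyve1CreCsf1rfl/fl* tumor of run 2 gave the least precise values. Of the 254 cells, 7 had a hashtag count under 3 times that of the other tumor of the run, and no cDC1 barcode occurred in both runs, against 60 barcodes over all kept cells. Scrublet, which calls doublets from simulated mixtures of cells, marked 14 and 11 of the *Csf1rfl/fl* cDC1 and 6 and 8 of the *Lyve1CreCsf1rfl/fl* cDC1.

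The gate rested on both genes in most cells. *Xcr1* and *Clec9a* were found together in 174 cells, *Xcr1* alone in 48 and *Clec9a* alone in 32. At the edge of the gate, the 214 cells with 1 UMI of *Xcr1* or *Clec9a* that met the other limits had 1.34 UMIs of *Batf3* and 2.99 of *Wdfy4* per 10000, and the 63 cells with 2 UMIs had 2.79 and 5.15. *Siglech*, a receptor of plasmacytoid dendritic cells, went the other way, with 3.72 just outside the gate and 1.06 just inside. Before the other limits 362 cells held at least 2 UMIs of the pair, and the T cell limit took the most of them, 86 cells. By tumor, the 86 were 31 and 31 in *Csf1rfl/fl* and 9 and 15 in *Lyve1CreCsf1rfl/fl*. The C1q limit applied to 12 and 4 against 0 and 0. These values describe the selection and were not tested, since the same UMIs chose the cells.

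To check the label, the levels of marker genes in the summed cells of each tumor, as UMIs per 10000, were set beside those of other cells gated by their own genes. The gates were the *Cd209a* gate (314 cells), the *Fscn1* *Ccr7* gate of mature dendritic cells (1331), the *Siglech* gate of plasmacytoid cells (479), the C1q gate of macrophages (1000), and gates of neutrophils (5955), T cells (8385) and NK cells (1159). The cDC1 carried the markers of their label in every tumor. *Batf3* was at 2.16 and 2.73 UMIs per 10000 in *Csf1rfl/fl* cDC1 and at 2.71 and 2.30 in *Lyve1CreCsf1rfl/fl* cDC1. Mature dendritic cells had a mean of 2.26 and were lower than the cDC1 of their own tumor in all 4 tumors, and the *Cd209a* gate had 0.310. *Irf8* was at 12.7 and 17.4 in *Csf1rfl/fl* and at 13.4 and 15.9 in *Lyve1CreCsf1rfl/fl*, above the 9.50 of mature dendritic cells and below the 25.2 of the *Siglech* gate in all 4 tumors. *Flt3* was at 1.07 and 1.89 and at 1.41 and 1.52, below mature dendritic cells of the same tumor in all 4 tumors, which had a mean of 1.77. Of the selecting genes, *Xcr1* was at 2.10, 4.04, 2.84 and 3.08 and *Clec9a* at 1.19, 1.27, 1.22 and 1.02 in the same order of tumors.

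Of a list of 17 further genes of cDC1, 15 were highest in cDC1 among the 8 gated populations by the mean over tumors. The list was chosen with earlier results of these data known, and several members also lead the ranking of these same cells below. Its counts are therefore a description and not a separate check of the label. Nor was it held to the limit of 20 UMIs in every tumor's cDC1. All 17 were higher in cDC1 than in the *Cd209a* gate of the same tumor in every tumor, where 27.4% of 2359 genes with at least 20 UMIs in every tumor's cDC1 were so. Against mature dendritic cells, the *Siglech* gate and the C1q gate the counts were 16, 17 and 16 of 17, where 54.1%, 38.4% and 39.8% of the 2359 genes were higher. The exceptions by the mean were *Clnk*, an adaptor protein, which was higher in NK cells (0.469 UMIs per 10000, against 0.128 to 0.209 in cDC1), and *Ly75*, the uptake receptor DEC-205, which was higher in mature dendritic cells (1.33, against 0.256 to 0.397). *Wdfy4*, which cross-presentation of cell-bound antigen requires, was at 3.77 and 6.44 in *Csf1rfl/fl* cDC1 and at 4.56 and 5.20 in *Lyve1CreCsf1rfl/fl* cDC1, against 1.09 in the *Cd209a* gate. *Tlr3*, the sensor of double-stranded RNA, was at 1.52, 1.75, 0.943 and 1.57, against 0.236 in the C1q gate. *Itgae*, which encodes CD103, was at 1.38, 2.63, 2.01 and 1.70, against 0.448 in T cells. *Naaa*, a lysosomal amidase, was at 8.11, 11.6, 10.3 and 8.15, against 2.12 in the *Cd209a* gate. The 4 tumors did not overlap any other gate for these 4 genes.

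**Figure D1:**
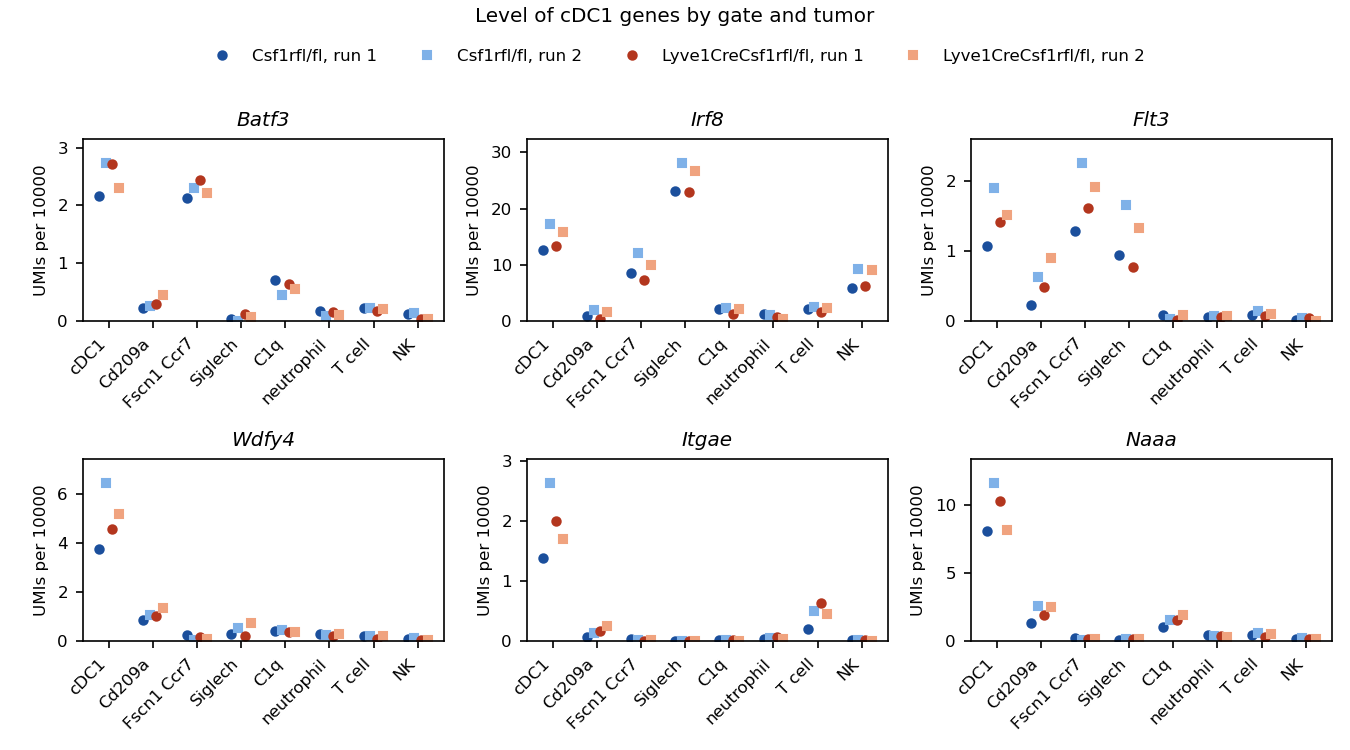
UMIs per 10000 UMIs of the summed cells (y axes) of *Batf3*, *Irf8*, *Flt3*, *Wdfy4*, *Itgae* and *Naaa* in cDC1 and in 7 other gates (x axes), 1 point per tumor, colored by genotype with circles for run 1 and squares for run 2. *Wdfy4*, *Itgae* and *Naaa* stood above every other gate in all 4 tumors, while *Irf8* was higher in the *Siglech* gate and *Batf3* and *Flt3* were also found in mature dendritic cells.

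Because the cDC1 were deeper than the other cells, the share of cells with a UMI was taken after each cell was thinned to 2000 UMIs. *Wdfy4* was then found in 63.8% of the 254 cDC1, *Naaa* in 81.9% and *Itgae* in 32.7%. In the *Cd209a* gate the shares were 15.3%, 32.5% and 2.55% of 314 cells, and in T cells, which should lack *Wdfy4*, 2.19%, 5.14% and 7.98% of 7427 cells. *Snx22*, a sorting nexin, was found in 10.6% of cDC1 and in at most 0.109% of the cells of the other 5 gates examined.

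Genes were then ranked by the smallest log2 ratio, over the 4 tumors, of their level in cDC1 to the highest level in any other gate of the same tumor, with 0.05 UMIs per 10000 added to both. The 25 leading genes had ratios of 0.743 to 3.55 on the log2 scale in their least favorable tumor. The ranking chose these genes, so no test was made. *Txndc16*, an endoplasmic reticulum protein of the thioredoxin family, led with 2.96 and 4.05 UMIs per 10000 in *Csf1rfl/fl* and 2.04 and 4.81 in *Lyve1CreCsf1rfl/fl*, and T cells were next with 0.175. It was followed by *Snx22*, the orphan receptor gene *Gpr141b* and *Gcsam*, whose protein signals in germinal center B cells. *Gcsam* was at 0.677, 1.11, 0.958 and 0.653. Other members were a T-cell inhibitory receptor and genes of the lysosome and of metabolism. *Btla*, the inhibitory receptor, was at 1.18, 1.65, 1.28 and 1.31, and *Ppt1*, a lysosomal thioesterase, at 6.85, 9.79, 6.20 and 9.01, against 2.07 in the C1q gate. *Dnase1l3*, which encodes a secreted DNase that degrades DNA of dead cells, was at 2.79, 2.06, 1.93 and 3.40, against 0.796 in the C1q gate. *Atpif1*, the inhibitor of the mitochondrial ATP synthase, was at 15.7, 14.4, 17.2 and 13.8, against 6.10 in mature dendritic cells. *Ifi205*, an interferon-inducible gene of the AIM2-like family with close paralogs that reads could be shared with, was at 10.2, 10.1, 10.4 and 11.2, against 4.67 in the *Cd209a* gate. The 4 tumors differed little in it. *Gatm*, *Got2*, *Dctpp1*, *St3gal5* and *Tnni2* were also among the 25.

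**Figure D2:**
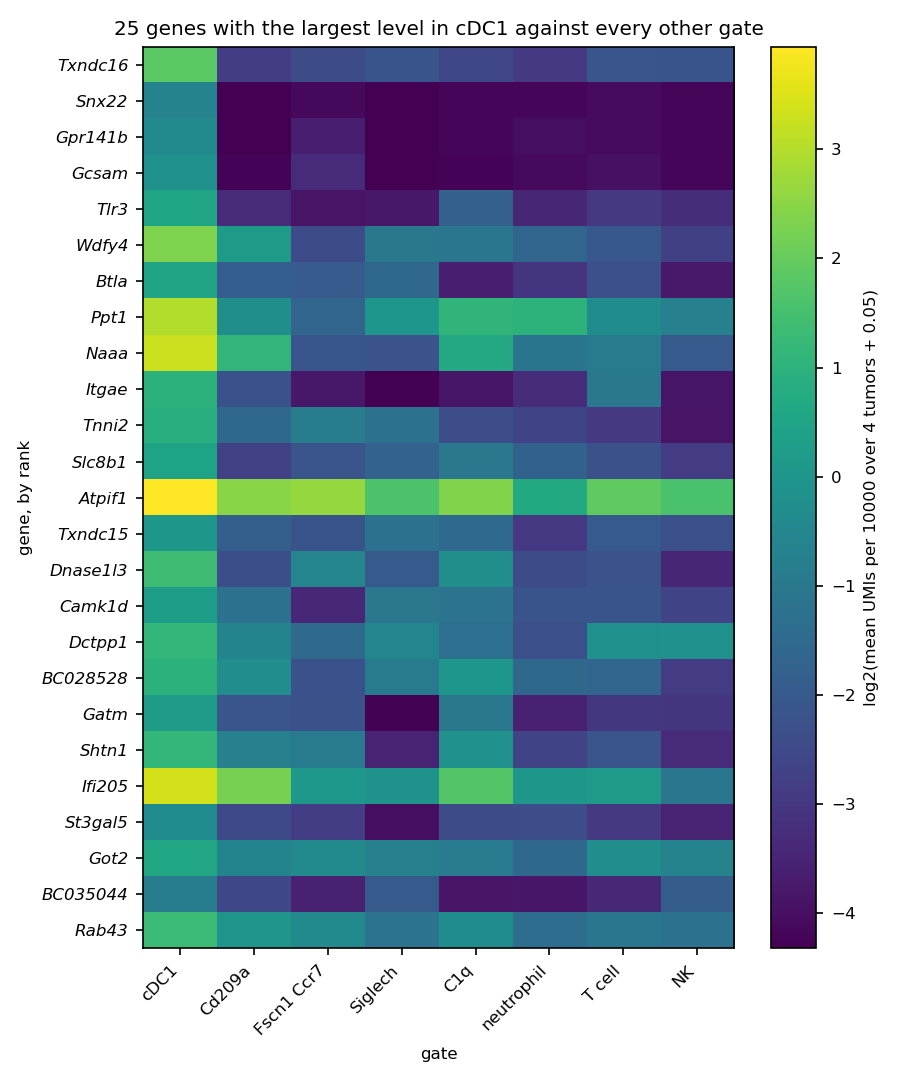
Heat map of the 25 genes with the largest level in cDC1 against every other gate (rows, by rank) in the 8 gates (columns). Color gives log2 of the mean UMIs per 10000 over 4 tumors plus 0.05, and the cDC1 column is the brightest in each row because the genes were ranked on that ratio.

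Of 14 transcription factors of dendritic cells, 3 were highest in cDC1 among the 8 gates by the mean over tumors. Against the *Cd209a* gate 3 were higher and 7 lower in all 4 tumors, where 27.4% and 26.7% of the 2359 genes were. Against mature dendritic cells 5 were higher and 5 lower, where 54.1% and 22.2% were. Against the *Siglech* gate 6 were higher and 6 lower, where 38.4% and 29.7% were. Single members differed more. *Id2*, which represses the program of plasmacytoid cells, was at 10.1 and 9.59 UMIs per 10000 in *Csf1rfl/fl* cDC1 and at 8.32 and 7.60 in *Lyve1CreCsf1rfl/fl* cDC1, against 1.62 in the *Cd209a* gate and 0.929 in the *Siglech* gate. *Irf4*, a factor of the other conventional dendritic cells, was found in only 3 cDC1 and was at 0, 0.0142, 0 and 0.0261, against 0.281 in the *Cd209a* gate. *Cbfa2t3*, the corepressor ETO2, was at 1.74, 3.64, 2.24 and 2.48, near the 2.68 of the *Cd209a* gate. *Zbtb46*, a factor of conventional dendritic cells, was at 0.409, 0.703, 0.365 and 0.784 and higher in mature dendritic cells of every tumor, with a mean of 0.718. *Tcf4*, the factor of plasmacytoid cells, was at 0.869, 0.504, 0.365 and 1.62, against 16.7 in the *Siglech* gate.

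A few members stood closer to plasmacytoid cells. Of the 254 cells, 11 held at least 2 UMIs of *Siglech*, 5 and 1 in *Csf1rfl/fl* and 2 and 3 in *Lyve1CreCsf1rfl/fl*. Their median depth was 5541 UMIs, and Scrublet marked 1 of them. Of these 11 cells, 1 had *Xcr1*, so nearly all entered through *Clec9a*. In them *Ly6d* was at 38.5 and *Tcf4* at 17.0 UMIs per 10000, against 0.0411 and 0.348 in the other 243 cDC1 and 22.6 and 16.3 over all cells of the *Siglech* gate. *Batf3* was at 1.18 in them, against 2.57 in the other cDC1 and 0.0479 in the *Siglech* gate. *Clec9a* was at 3.98 in these 11 cells and at 0.235 in the *Siglech* gate, but they were chosen for both genes. The plasmacytoid list of 6 genes, all with UMIs in cDC1, summed to 4.28 and 0.915 UMIs per 10000 in *Csf1rfl/fl* and to 1.47 and 6.71 in *Lyve1CreCsf1rfl/fl*.

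Antigen presentation genes differed by class against some gates. The median log2 ratio of cDC1 to the mature, *Siglech* and C1q gates was 0.99, 1.88 and 1.39 over class II. Over class I and cross-presentation it was -0.02, -0.22 and -0.06. Against the *Cd209a* gate both medians were -0.07. The cDC1 had high levels of MHC class II genes, though several were lower than in the *Cd209a* gate. *Cd74*, the invariant chain, was at 95.1 and 103 UMIs per 10000 in *Csf1rfl/fl* cDC1 and at 108 and 86.5 in *Lyve1CreCsf1rfl/fl* cDC1, against 103 in the *Cd209a* gate, 49.8 in mature dendritic cells and 47.1 in the C1q gate. Of 11 genes of class II, 8, 9 and 10 were higher in cDC1 in all 4 tumors than in mature dendritic cells, the *Siglech* gate and the C1q gate, where 54.1%, 38.4% and 39.8% of the 2359 genes were higher. Against the *Cd209a* gate 1 was higher and 5 were lower, where 27.4% and 26.7% of the 2359 genes were. *H2-DMa* and *H2-DMb1*, the peptide editor of class II, were among the 5, with 4.34 to 5.43 and 3.58 to 4.43 in cDC1 against 8.22 and 6.72. *Ctss*, the protease of the invariant chain, was also lower, at 3.56 to 5.46 against 9.16. Lower levels were found for *H2-K1* and *B2m*, genes of class I molecules. *H2-K1* was at 8.48, 6.54, 5.87 and 8.05, against 22.7 in T cells and 22.3 in mature dendritic cells, and *B2m* was at 19.2, 15.3, 14.0 and 18.1, against 44.7 in mature dendritic cells. Both genes were lower in cDC1 of every tumor than in each dendritic cell and macrophage gate. The 3 catalytic genes of the immunoproteasome differed among themselves. *Psmb9* was at 10.8, 8.46, 9.64 and 7.50, above all of the *Cd209a*, mature, *Siglech* and C1q gates in every tumor, of which mature dendritic cells had the most at 7.05. *Psmb8* was at 14.1, 10.01, 13.8 and 9.46, against 11.6 in mature dendritic cells, and was higher in 3 of 4 tumors. *Psmb10* was at 1.80, 1.53, 1.87 and 1.36, lower in every tumor than in the *Cd209a* (2.25), mature (2.08) and C1q (2.47) gates. Over all 19 genes of class I and cross-presentation, 7 were higher and 8 lower in all 4 tumors than in the *Cd209a* gate, where 27.4% and 26.7% of the 2359 genes were higher and lower.

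Maturation genes were lower in the cDC1 of these tumors than in mature dendritic cells. All 12 genes of the maturation list were lower in cDC1 of every tumor than in mature dendritic cells, where 22.2% of the 2359 genes were lower. The gates themselves set part of this, since cDC1 with 2 or more UMIs of *Fscn1* were left out and mature dendritic cells had to hold *Ccr7*. The 2359 genes also had to hold at least 20 UMIs in cDC1 of every tumor, a limit not set on the list. Genes low in cDC1 are therefore missing from the share of 22.2%. Against the *Cd209a* gate 3 of the 12 were higher and 4 lower in all 4 tumors, where 27.4% and 26.7% of the 2359 genes were. Against the *Siglech* gate 2 were higher and 5 lower, where 38.4% and 29.7% were. Against the C1q gate 2 were higher and 6 lower, where 39.8% and 28.5% were. *Ccr7*, which guides cells to the lymph node, was found in 13 cDC1 and was at 0.434 and 0.369 UMIs per 10000 in *Csf1rfl/fl* and at 0.258 and 0.0784 in *Lyve1CreCsf1rfl/fl*, against 16.0 in mature dendritic cells. Of its 106 UMIs, 85.8% were in 5 cells. *Cd86*, a costimulatory ligand, was at 1.34, 1.05, 1.38 and 1.12, against 2.68 in mature dendritic cells and 1.07 in the *Cd209a* gate. *Cd274*, which encodes PD-L1, was at 0.396, 0.305, 0.304 and 0.392, below the *Cd209a* gate (0.980), mature dendritic cells (3.47) and neutrophils (6.60). *Havcr2*, which encodes TIM-3, was the 1 member of 14 costimulation and checkpoint genes that was highest in cDC1. It was at 1.42, 1.09, 1.96 and 1.41, against 1.12 in T cells and 0.696 in the C1q gate.

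Among 21 cytokines and chemokines, *Cxcl9*, a ligand of CXCR3 on T cells, was the 1 gene highest in cDC1. Its level was 2.86 and 4.27 UMIs per 10000 in *Csf1rfl/fl* cDC1 and 6.13 and 5.49 in *Lyve1CreCsf1rfl/fl* cDC1, against 3.24 in the C1q gate, and it was higher than in the C1q gate of the same tumor in all 4 tumors. At 2000 UMIs per cell, *Cxcl9* was found in 23.2% of cDC1, 12.4% of C1q cells and 3.35% of T cells. *Il12b*, the p40 subunit of interleukin-12, was found in 5 cDC1 with 37 UMIs in all, and mature dendritic cells had a level of 1.90. *Cxcl16*, the ligand of CXCR6, was at 1.34, 0.979, 1.11 and 1.20, against 5.87 in mature dendritic cells. No UMI of *Il10*, *Ifnb1* or *Tnfsf4* was found in the 254 cells, which allows a share of up to 1.18% of cells with a UMI, by a limit of 3 counts that covers counting error only. Of the 20 interferon-stimulated genes measured, 17 were lower in cDC1 of every tumor than in the *Cd209a* gate and 19 than in the C1q gate. Of the 2359 genes, 26.7% and 28.5% were lower. Against mature dendritic cells and the *Siglech* gate 10 and 10 were lower, where 22.2% and 29.7% of the 2359 genes were. In these 2 gates 5 and 1 were higher, where 54.1% and 38.4% were. The list was not held to the limit of 20 UMIs in cDC1 of every tumor that the 2359 genes met. *Isg15* was at 7.16, 6.93, 5.12 and 6.22, against 11.6 and 16.9 in these gates. Of 14 growth factor and cytokine receptors, 0 were highest in cDC1. In all 4 tumors 2, 5, 4 and 2 were higher than in the *Cd209a*, mature, *Siglech* and C1q gates, where 27.4%, 54.1%, 38.4% and 39.8% of the 2359 genes were. In the same order 8, 6, 8 and 11 were lower, where 26.7%, 22.2%, 29.7% and 28.5% were. The receptor list was not held to the limit of 20 UMIs either. *Kit*, of this list, was at 0.396, 0.745, 0.578 and 0.444. It was higher in every tumor than in the *Cd209a* (0.238), mature (0.308), *Siglech* (0.120) and C1q (0.0257) gates, but NK cells had 0.801. Of the 12 immediate early genes, which dissociation can induce, 10 were lower in cDC1 of every tumor than in the *Cd209a* gate, where 26.7% of the 2359 genes were. Against mature dendritic cells, the *Siglech* gate and the C1q gate 4, 4 and 7 were lower, where 22.2%, 29.7% and 28.5% were. In these 3 gates 4, 1 and 0 were higher, where 54.1%, 38.4% and 39.8% were. This list was not held to the limit of 20 UMIs either.

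Among the gated dendritic cells, the cDC1 held the most cell cycle RNA. With 2 or more UMIs of 12 genes of G2 and M phase taken as cycling, 35.8% of cDC1 were cycling, against 8.60% of the *Cd209a* gate, 4.96% of mature dendritic cells, 2.09% of the *Siglech* gate, 11.7% of the C1q gate and 33.9% of T cells. Thinned to 2000 UMIs, the shares were 22.0% of cDC1, 3.18%, 2.29% and 0.419% of the other dendritic cell gates, 6.30% of the C1q gate and 26.6% of T cells. Thinning evens detection, but the gate passes deep cells more often, and that selection remains. With at least 3 UMIs of *Xcr1* and *Clec9a*, unthinned, the cycling shares were 52.9% and 40.4% in *Csf1rfl/fl* cDC1 and 36.8% and 36% in *Lyve1CreCsf1rfl/fl* cDC1. *Mki67*, the proliferation antigen Ki-67, was at 1.50, 2.28, 0.928 and 1.15 UMIs per 10000 in cDC1, against 0.447 in the *Cd209a* gate and 2.70 in T cells. Cycling and other cDC1 were set side by side for genes of the label, with no test. *Batf3* was at 2.0 to 2.61 in cycling cells of the 4 tumors and at 2.01 to 2.99 in the others, *Wdfy4* at 3.31 to 6.68 and 4.29 to 6.20, and *Naaa* at 7.99 to 11.9 and 7.11 to 11.8. *Snx22* and *Id2* were lower in the cycling cells of all 4 tumors, and the share of all genes that were so was not taken. *Snx22* was at 0.241, 0.702, 0.317 and 0.414 in cycling cells and at 0.733, 0.830, 0.765 and 0.631 in the others. *Id2* was at 9.97, 9.35, 7.45 and 4.14 in cycling cells and at 10.2, 9.83, 8.86 and 9.72 in the others. *Clec9a*, a gene of the gate, was at 0.828 to 1.19 and 1.14 to 1.36. The gate asks for the same UMIs of *Xcr1* and *Clec9a* at any depth, so shallow cells enter at higher levels per 10000. The *Clec9a* values are therefore not read as a result. Cycling cells had more UMIs, with medians of 14597 to 19700 against 9814 to 11007. For a ranking of other genes, the 12 genes, *Hmgb2* and a list of S phase genes were left out. The largest excess in cycling cells was then in genes that included *Hist1h1b*, a linker histone, *Pclaf*, *Stmn1*, *Spc24*, *Rrm1* and *Smc2*. *Pclaf*, a PCNA-binding factor, was at 5.31, 6.62, 6.26 and 7.38, against 0.272, 0.0563, 0.197 and 0.0421 in the other cells. The lowest relative to the other cells included *Tcf4*, *Slfn5*, *Ccnd2*, *Junb* and *Btg1*. Of the 11 cells with at least 2 UMIs of *Siglech*, 1 was cycling. They held *Tcf4* at 17.0 against 0.348 in the other cDC1, and their part in its difference was not tested. *Btg1*, an antiproliferative gene, was at 3.26, 4.46, 2.85 and 5.72 in cycling cells and at 5.65, 7.05, 5.16 and 10.3 in the others.

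The design asks how other immune cells of the tumor differ when LYVE-1+ macrophages have been targeted through *Csf1r*. *Csf1r* itself was nearly absent from cDC1, with 17 and 14 UMIs in *Csf1rfl/fl* and 4 and 2 in *Lyve1CreCsf1rfl/fl*, or 0.217 and 0.0994 against 0.0608 and 0.0523 UMIs per 10000. Both *Lyve1CreCsf1rfl/fl* tumors were lower, but the counts were under the filter of the test. The macrophage list of 12 genes, which were all found, summed to 9.78 and 3.17 UMIs per 10000 in *Csf1rfl/fl* and 4.18 and 4.83 in *Lyve1CreCsf1rfl/fl*, and the part of macrophage RNA in these *Csf1r* UMIs was not tested. This list includes the C1q genes, which the gate limits. In the *Cd209a* gate *Csf1r* was at 0.946 and 0.958 against 0.407 and 0.422, and in the C1q gate at 1.67 and 2.30 against 1.43 and 1.55. These are 3' reads, which do not cover the whole transcript, so they do not show whether the floxed part of the gene was lost. No UMI of *Lyve1* was found in cDC1.

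The cDC1 were 0.639% and 1.45% of kept cells in *Csf1rfl/fl* tumors and 0.773% and 0.629% in *Lyve1CreCsf1rfl/fl* tumors. The log2 ratio of the genotypes was -0.47, and the groups overlapped (exact two-sided permutation test over n = 4 tumors, p = 0.667, where the smallest p that 2 tumors against 2 can give is 0.333). The runs went opposite ways, with log2 ratios of 0.27 in run 1 and -1.21 in run 2, and without the *Csf1rfl/fl* tumor of run 2 the ratio turned to 0.13. Before the limits on genes other than *Xcr1* and *Clec9a*, the counts were 98 and 148 against 70 and 46 of the same kept cells. As shares, both *Lyve1CreCsf1rfl/fl* tumors were then lower than both *Csf1rfl/fl* tumors, which was not tested. A gate on UMIs passes deep cells more often, so the share was also taken among kept cells with at least 5000 UMIs. The shares were then 1.28%, 3.80%, 2.21% and 1.42%. Over all barcodes with a hashtag majority they were 0.503%, 1.07%, 0.557% and 0.337%, where the *Lyve1CreCsf1rfl/fl* tumor of run 2, which lost the most cells to the authors' filters, had 14254 barcodes and 4771 kept cells. Among the gated dendritic cells, cDC1 made up 8.37% and 16.6% in *Csf1rfl/fl* and 8.43% and 8% in *Lyve1CreCsf1rfl/fl*. The log2 ratio was -0.52 (exact permutation test, n = 4, p = 0.667), and 0.01 in run 1 and -1.05 in run 2. The higher value came from 1 tumor in each case. Without it the second ratio was -0.03.

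Cycling cells made up 38.2% and 38.9% of cDC1 in *Csf1rfl/fl* tumors and 30.4% and 30% in *Lyve1CreCsf1rfl/fl* tumors. The groups did not overlap, and the log2 ratio was -0.35 (exact two-sided permutation test, n = 4, p = 0.333, the smallest it can give), with -0.33 in run 1 and -0.38 in run 2. At 2000 UMIs per cell the shares were 27.3% and 24.8% against 14.3% and 16.7%. This order depended on doublet calls in 1 tumor. In the *Csf1rfl/fl* tumor of run 1, 12 of the 14 cells that Scrublet marked were cycling, against 4 of 11 in the *Csf1rfl/fl* tumor of run 2 and 1 of 6 and 2 of 8 in the *Lyve1CreCsf1rfl/fl* tumors. Without marked cells the shares were 22.0%, 39.2%, 32.0% and 31.8%, and the log2 ratio was 0.12. In that tumor the marked cells had a median of 18538.5 UMIs and the others 11577. Whether the marked cells were doublets was not tested.

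**Figure D3:**
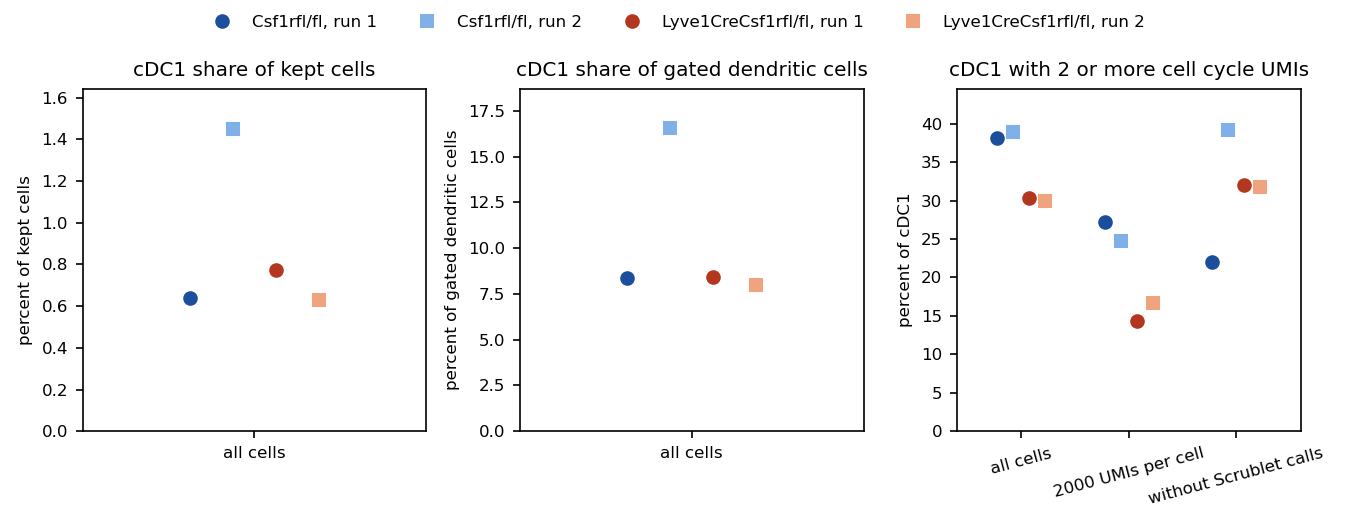
Share of cDC1 in percent of kept cells (left), of gated dendritic cells (middle) and share of cycling cells in percent of cDC1 (right), 1 point per tumor, colored by genotype with circles for run 1 and squares for run 2. The first 2 panels show the *Csf1rfl/fl* tumor of run 2 above the other 3, and in the right panel the genotypes separate with all cells and at 2000 UMIs per cell but not without the cells marked by Scrublet.

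Gene levels in cDC1 were compared between genotypes on UMIs summed per tumor (edgeR quasi-likelihood test, Benjamini-Hochberg adjustment, n = 2 tumors per genotype). No gene passed an adjusted p of 0.05, so 0% of 6086 genes were called, and the smallest adjusted p was 0.108. At an unadjusted p under 0.05 there were 134 genes, 2.2% of those tested, and DESeq2 called 0 genes, with 40 at an unadjusted p under 0.05. Without regard to any test, both *Lyve1CreCsf1rfl/fl* tumors were higher than both *Csf1rfl/fl* tumors for 11.3% of genes and lower for 13.5%. No difference was detected in the genes of cDC1 identity that the gate did not use. Of the 3 such label markers and the 17 further cDC1 genes, all were tested and 0 had an unadjusted p under 0.05. The log2 ratio was 0.08 with a standard error of 0.29 for *Batf3*, -0.01 with 0.28 for *Irf8* and 0.01 with 0.32 for *Flt3*. The median over the 17 further genes was -0.08, against 0.00 over all 6086 genes, and the runs went opposite ways, with 14 of the 17 ratios positive in run 1 and 2 in run 2. *Xcr1* and *Clec9a* chose the cells, so their ratios are not given. The 11 genes of class II and the 19 of class I likewise had 0 genes at an unadjusted p under 0.05, with medians of -0.09 and -0.03. Of the class II genes, 8 of 11 were positive in run 1 and 1 in run 2. For *Cd74* the log2 ratio was 0.02 with a standard error of 0.29.

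None of the 13 genes of G2 and M phase passed the adjusted threshold, though their log2 ratios had 1 sign. All 13 were tested, all 13 had a negative log2 ratio with a median of -1.06, and 12 of the 13 were lower in both *Lyve1CreCsf1rfl/fl* tumors than in both *Csf1rfl/fl* tumors, where 13.5% of all genes were. At an unadjusted p under 0.05, 10 of the 13 were lower, as were 75 of the 6086 genes. Of the 13, 12 define cycling and are found mostly in the same cells, 17 and 9 cycling cDC1 in the *Lyve1CreCsf1rfl/fl* tumors. Their signs are therefore not independent of each other. *Ube2c*, the ubiquitin-conjugating enzyme of the anaphase-promoting complex, was at 2.17 and 1.72 UMIs per 10000 in *Csf1rfl/fl* and at 0.426 and 0.679 in *Lyve1CreCsf1rfl/fl*, a log2 ratio of -1.83 with a standard error of 0.33 (edgeR adjusted p = 0.108). It was found in 59 cells, and the 5 highest held 32.3% of its UMIs. *Cenpf*, a kinetochore protein, was at 0.831 and 0.688 against 0.152 and 0.209, a log2 ratio of -2.06 with a standard error of 0.39 (edgeR adjusted p = 0.108). For both genes the groups stood well apart, but the *Lyve1CreCsf1rfl/fl* tumors rested on 28 and 26 UMIs of *Ube2c* and 10 and 8 of *Cenpf*. *Tpx2*, a spindle assembly factor, was at 0.690 and 0.632 against 0.274 and 0.235, with a log2 ratio of -1.30, and *Cdc20*, the activator of the anaphase-promoting complex, at 0.166 and 0.270 against 0.0456 and 0.0784, with -1.86. *Hmmr*, a hyaluronan receptor that acts at the spindle and was named by its p outside the list, had a log2 ratio of -1.96, which ran from -2.70 to -1.33 when 1 tumor was left out, nearest 0 without *Lyve1CreCsf1rfl/fl* run 1. *Top2a*, topoisomerase II, was the 1 of 13 whose groups overlapped, with 1.90 and 2.76 against 1.28 and 2.09.

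The 11 genes of S phase, of which 10 were tested, gave other values. Their median log2 ratio was 0.24, 7 of 10 were positive, 2 were higher in both *Lyve1CreCsf1rfl/fl* tumors and 0 lower, where 11.3% and 13.5% of all genes were. *Pcna*, the sliding clamp of replication, was at 1.25 and 1.65 in *Csf1rfl/fl* and at 1.81 and 2.17 in *Lyve1CreCsf1rfl/fl*, with a log2 ratio of 0.47 and a standard error of 0.29. *Mcm5*, of the replicative helicase, was at 0.511 and 0.511 against 0.380 and 0.810. Neither had an unadjusted edgeR p under 0.05. Summed over the 12 genes that define cycling, the level in cDC1 was 11.7 and 12.8 UMIs per 10000 in *Csf1rfl/fl* and 5.26 and 6.61 in *Lyve1CreCsf1rfl/fl*. In T cells the same sum was 10.7 and 16.1 against 13.3 and 14.2, and in NK cells 12.5 and 8.60 against 10.4 and 14.3, so the genotypes overlapped there. In mature dendritic cells it was 1.34 and 1.96 against 2.29 and 3.67, higher in both *Lyve1CreCsf1rfl/fl* tumors, and in the *Cd209a* gate 1.42 and 1.29 against 1.41 and 4.80. A test of the difference between cell types was not made. Within cycling cDC1 the sum was 21.9 and 25.8 against 13.5 and 17.2. Without the cells marked by Scrublet, the sum over cDC1 was 5.70 and 12.7 against 5.44 and 4.26, so that the *Csf1rfl/fl* tumor of run 1 stood next to the *Lyve1CreCsf1rfl/fl* tumors. In that fit 11 genes of the list were tested, all 11 were negative, and the median log2 ratio was -0.77. Leaving out each tumor in turn gave medians of -0.99 to -1.35 with all 13 genes negative.

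**Figure D4:**
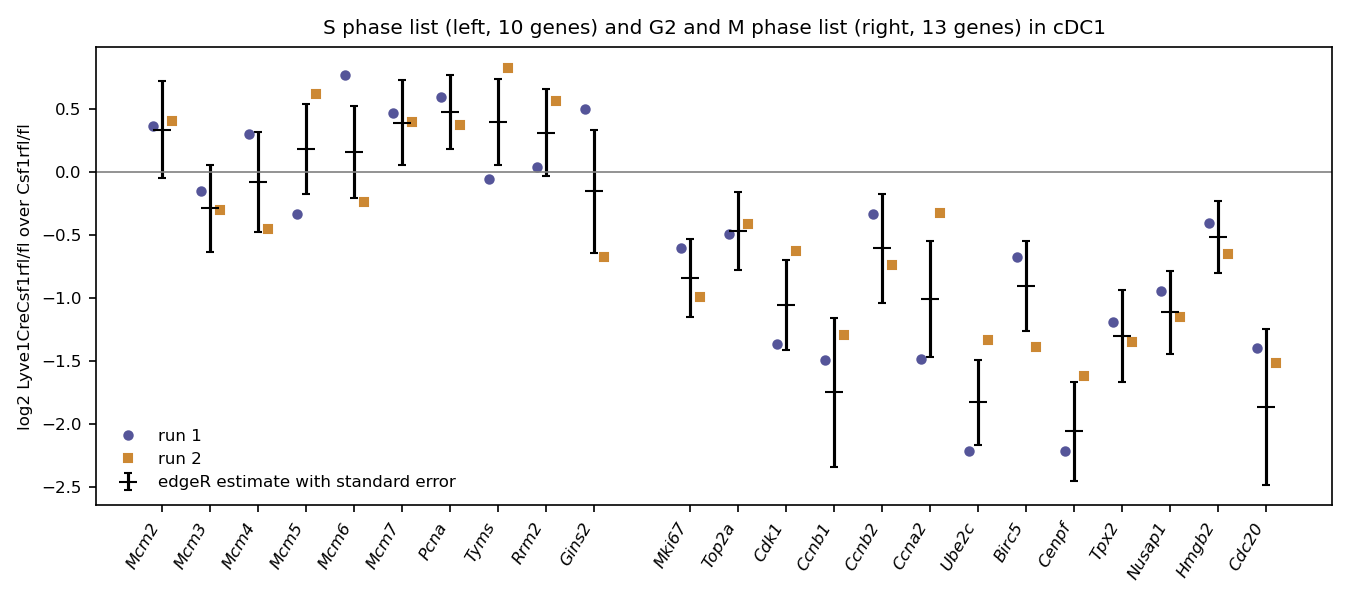
Log2 ratio of *Lyve1CreCsf1rfl/fl* to *Csf1rfl/fl* cDC1 (y axis) for 10 tested genes of S phase (left) and 13 of G2 and M phase (right). Black dashes with bars are the edgeR estimate with its standard error, circles the ratio within run 1 and squares within run 2. All 13 genes on the right lie below 0 in both runs, and those on the left scatter around 0.

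The promoters of these genes are shown because the G2 and M genes had log2 ratios of 1 sign, and such genes are known to share a pair of elements, the CCAAT box bound by NF-Y and the cell cycle genes homology region bound by the DREAM complex and B-MYB. The RefSeq sequences of GRCm38 were read from 250 bases before to 30 after the gene start and searched on both strands. The letters of the first element were CCAAT, which are read as ATTGG when the element lies on the opposite strand. The letters of the homology region were TTTGAA, in the same way found as TTCAAA. No CCAAT match overlapped a TTTGAA match in the windows printed. Capitals mark the matches, and each is printed 5' to 3' on the strand of the gene. *Ube2c* is at chr2:164769679-164769958 on the plus strand, *Cenpf* at chr1:189688057-189688336 on the minus strand, *Cdc20* at chr4:118437314-118437593 on the minus strand and *Mcm5*, of the S phase list, at chr8:75109259-75109538 on the plus strand.
Ube2c: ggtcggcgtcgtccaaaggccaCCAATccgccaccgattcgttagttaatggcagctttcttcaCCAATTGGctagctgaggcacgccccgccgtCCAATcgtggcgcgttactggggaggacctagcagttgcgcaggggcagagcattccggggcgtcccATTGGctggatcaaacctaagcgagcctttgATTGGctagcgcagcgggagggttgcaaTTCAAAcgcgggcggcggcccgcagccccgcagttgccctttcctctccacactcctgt
Cenpf: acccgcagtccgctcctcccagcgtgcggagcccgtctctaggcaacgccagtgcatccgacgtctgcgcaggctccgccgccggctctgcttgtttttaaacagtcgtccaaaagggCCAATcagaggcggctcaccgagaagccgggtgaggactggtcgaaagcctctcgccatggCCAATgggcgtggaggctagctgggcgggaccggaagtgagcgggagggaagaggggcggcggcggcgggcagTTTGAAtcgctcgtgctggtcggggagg
Cdc20: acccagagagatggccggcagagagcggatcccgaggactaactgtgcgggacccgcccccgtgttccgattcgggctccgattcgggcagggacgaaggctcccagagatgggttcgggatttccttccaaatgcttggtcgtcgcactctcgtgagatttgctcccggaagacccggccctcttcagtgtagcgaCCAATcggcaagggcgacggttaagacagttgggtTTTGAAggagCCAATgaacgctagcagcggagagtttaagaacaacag
Mcm5: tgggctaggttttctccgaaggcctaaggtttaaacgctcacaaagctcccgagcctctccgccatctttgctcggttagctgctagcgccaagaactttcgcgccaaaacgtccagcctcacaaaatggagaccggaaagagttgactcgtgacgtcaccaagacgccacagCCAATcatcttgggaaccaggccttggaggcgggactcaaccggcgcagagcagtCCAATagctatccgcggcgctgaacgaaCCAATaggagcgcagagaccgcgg

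The *Ube2c* window held 6 matches to CCAAT, of which a plus-strand and a minus-strand match overlapped by 2 bases, and a TTTGAA match 29 bases before the start. *Cenpf* held 2 and 1, *Cdc20* 2 and 1, and *Mcm5* held 3 matches to CCAAT and none to TTTGAA. Of the 13 genes of G2 and M phase, 11 had a promoter in the table, and 8 of the 11 held both elements, as did 6.54% of 27025 promoters and 1 of 9 of S phase. CCAAT, with or without TTTGAA, was in 9 of 11 and 7 of 9, and in 36.6% of all promoters, while TTTGAA was in 8 of 11 and 1 of 9, and in 17.4% of all. These matches describe the letters of the window. In 20 of the 25 leading cDC1 genes with a promoter, the BATF and AP-1 site TGANTCA was found in 0, and in 7.57% of all promoters. The interferon response element was found in 2 of the 20, *Gpr141b* and *Ifi205*, and in 3.35% of all.

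The chemokine genes led among the higher ones. *Cxcl2*, a neutrophil attractant, was at 3.91 and 1.72 UMIs per 10000 in *Csf1rfl/fl* cDC1 and at 14.7 and 8.15 in *Lyve1CreCsf1rfl/fl* cDC1, a log2 ratio of 2.08 with a standard error of 0.40 (edgeR adjusted p = 0.108). With the Chromium run as a replicate block it was the 1 gene called, with a log2 ratio of 2.10 and an edgeR adjusted p of 0.0145. *Ccl3*, a chemokine of inflammation, was at 1.04 and 0.326 against 1.99 and 2.61, a log2 ratio of 1.81 with a standard error of 0.41 (edgeR adjusted p = 0.497). Both genes are abundant in neutrophils, where *Cxcl2* had a mean of 341 and *Ccl3* of 39.7 UMIs per 10000. Few cells carried these UMIs. *Cxcl2* was found in 112 of 254 cDC1, and the 5 highest cells held 64.3% of its 1826 UMIs. The 11 cDC1 with at least 10 UMIs of *S100a8* and *S100a9* per 10000, 2 and 2 in *Csf1rfl/fl* and 5 and 2 in *Lyve1CreCsf1rfl/fl*, held 1590 of the 1826 *Cxcl2* UMIs and 217 of the 358 *Ccl3* UMIs, and Scrublet marked 8 of these 11. The neutrophil list of 8 genes, all with UMIs in cDC1, summed to 3.71 and 5.99 UMIs per 10000 in *Csf1rfl/fl* and to 19.0 and 2.77 in *Lyve1CreCsf1rfl/fl*. This list includes *S100a8* and *S100a9*, which the gate limits and which chose the 11 cells, so the sums are not separate from that choice. Without these 11 cells, *Cxcl2* was at 1.21 and 0.467 in *Csf1rfl/fl* and 0.367 and 1.69 in *Lyve1CreCsf1rfl/fl*, with a log2 ratio of 0.23, and *Ccl3* was at 0.846 and 0.248 against 0.250 and 0.819, with a log2 ratio of -0.070. The genotypes then overlapped for both genes.

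**Figure D5:**
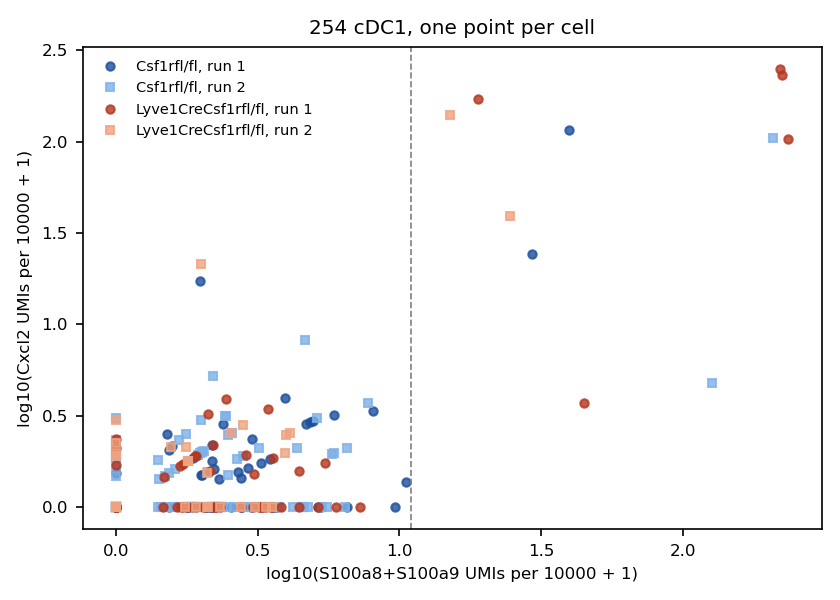
Log10 of *Cxcl2* UMIs per 10000 plus 1 (y axis) against log10 of *S100a8* and *S100a9* UMIs per 10000 plus 1 (x axis), 1 point for each of the 254 cDC1, colored by genotype with circles for run 1 and squares for run 2. The 11 cells right of the dashed line, at 10 UMIs per 10000, include most of the cells with the highest *Cxcl2*.

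*Ccl5*, a chemokine of T and NK cells and of mature dendritic cells, was at 0.230 and 0.866 in *Csf1rfl/fl* and at 0.806 and 4.13 in *Lyve1CreCsf1rfl/fl*, a log2 ratio of 2.06 with a standard error of 0.54. The ratio was 0.64 without the *Lyve1CreCsf1rfl/fl* tumor of run 2 and 3.29 without the *Csf1rfl/fl* tumor of run 2, and over 15 alternatives it ran from 0.64 to 3.60. Its groups overlapped in these levels, though not after the scaling of the test, and 5 of the 48 cells with it held 78.1% of its UMIs. The NK cell list of 6 genes, all with UMIs, had its highest sum in the same tumor, with 0.153 and 2.31 against 0.821 and 4.49, and its part in the result was not tested. *Cxcl9*, the chemokine highest in cDC1, was higher in both *Lyve1CreCsf1rfl/fl* tumors, where 11.3% of all genes were. It was at 6.13 and 5.49 against 2.86 and 4.27, with a log2 ratio of 0.74 and a standard error of 0.30. In cycling cells it was at 7.17 and 6.55 against 2.92 and 0.860, and in the others at 5.48 and 4.84 against 2.80 and 7.62. The genotypes overlapped in the others. Of the 99 cells with *Cxcl9*, 5 held 36.4% of its UMIs. *Cxcl10*, of the same family, was at 3.28 and 0.695 against 1.05 and 0.418, with overlapping groups and a log2 ratio of -1.32. The *Cxcl10* ratio was -2.09 without the *Csf1rfl/fl* tumor of run 2 and -2.32 without the *Lyve1CreCsf1rfl/fl* tumor of run 1. Neither gene passed the adjusted threshold in the main fit. With no filter on low counts *Cxcl10* was called lower, with a log2 ratio of -1.35 (edgeR adjusted p = 0.0439). *Slc7a11*, the cystine transporter, had a log2 ratio of 1.55 from 17 and 17 UMIs in *Csf1rfl/fl* and 29 and 19 in *Lyve1CreCsf1rfl/fl*, and *Hcar2*, a receptor of hydroxy-carboxylic acids, 1.90 from 5 and 15 against 28 and 7. Both rest on under 30 UMIs in each tumor. Without the 11 cells with *S100a8* and *S100a9*, or without cells marked by Scrublet, neither had enough UMIs to be tested. The ratio of *Hcar2* was 0.98 without the *Lyve1CreCsf1rfl/fl* tumor of run 1. The 14 cytokines and chemokines tested had a median log2 ratio of 0.44, which was -0.08 without the 11 cells with *S100a8* and *S100a9*.

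Of the 19 interferon-stimulated genes tested, 15 had a negative log2 ratio, with a median of -0.29, and 6 were lower in both *Lyve1CreCsf1rfl/fl* tumors, where 13.5% of all genes were. *Cmpk2*, a mitochondrial nucleotide kinase, was at 0.230 and 0.312 in *Csf1rfl/fl* and at 0.0760 and 0.0523 in *Lyve1CreCsf1rfl/fl*, with a log2 ratio of -1.96 and a standard error of 0.56, from 5 and 2 UMIs in *Lyve1CreCsf1rfl/fl*. *Irf7*, the regulator of the interferon response, was at 6.68 and 4.40 against 3.76 and 3.63, with -0.56 and a standard error of 0.31. *Znfx1*, an antiviral helicase named by its p, had a log2 ratio of -1.29. The median was 0.06 over the 16 genes tested without cycling cells and -0.12 over the 15 tested without cells marked by Scrublet, both over fewer genes. In the maturation and costimulation lists, *Ccr7* had a log2 ratio of -1.04 from its 13 cells, and *Cd40*, which receives help from T cells, was at 0.473 and 0.312 against 0.456 and 0.784, with 0.67. Neither passed the adjusted threshold. Among the genes named, standard errors ran from 0.28 for *Irf8* to 0.62 for *Cdc20*. For the other lists, the medians were -0.02 over 13 transcription factors, -0.15 over 10 costimulation and checkpoint genes, 0.07 over 12 growth factor and cytokine receptors and -0.02 over 14 genes of pattern recognition and dead-cell uptake, each with 0 genes at an unadjusted p under 0.05. The median was 0.28 over 8 maturation genes, with 1 gene, *Ccr7*, lower at that level. It was 0.06 over 9 chemotactic receptors, of which 1 was higher and 2 lower at that level, where 2.2% of all genes were either. It was 0.19 over 12 immediate early genes, of which 1 was higher at that level and 4 were higher in both *Lyve1CreCsf1rfl/fl* tumors, where 11.3% of all genes were.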

How the data were processed

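Per the methods of the authors, reads of the RNA and hashtag libraries were mapped to mm10 and counted with Cell Ranger 6.0.1. The deposited raw counts held 53361 barcodes and 32285 genes, and a second table held raw hashtag UMI counts. The authors kept singlets with under 5% mitochondrial reads in Seurat, removed clusters found mainly in the *Lyve1CreCsf1rfl/fl* tumor of run 2, and deposited SCTransform corrected values, a score that was used only to find the 28429 cells kept. That removal lowers the total behind the shares of that tumor most. UMIs were summed over the gated cells of each tumor. Genotypes were compared with the edgeR 4.0.16 quasi-likelihood test (filterByExpr, TMM, Benjamini-Hochberg over 6086 genes, threshold 0.05), with DESeq2 1.42.0 as an alternative. The edgeR fit was also tried on simulated data. Shares were compared by an exact two-sided permutation test over 4 tumors. cDC1 were not tested against other gates, since measured UMIs chose both. Other gates needed at least 2 UMIs of *Cd209a*, *Siglech* or the *Cd3* genes, 2 of *Fscn1* with 1 of *Ccr7*, or 1 of *Ncr1*, or reached the neutrophil or C1q limits. The 2 tumors of a genotype were replicates from separate mice. Since a run held 1 tumor of each genotype, the labels' replicate numbers pair the tumors. Deviations of same-numbered tumors from their genotype means correlated at r = 0.19 over all genes tested and 0.34 over the 3043 more highly expressed, with genes not independent. Named genes were members of functional lists, the 5 with the smallest p in each direction and the same sign in both runs, and the 25 leading cDC1 genes with at least 20 UMIs in every tumor. The members and lists were chosen with earlier results of these data known. Scrublet (scanpy 1.11.5) was run per run on kept cells and removed no cell from the main results. It marked 22.0% and 13.7% of kept cells. Intervals and floors cover counting error only. Gene positions are from GENCODE vM21 and promoters from RefSeq. Python 3.11.15, numpy 2.4.6, pandas 2.3.3, scipy 1.17.1 and R 4.3.3 were used.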

Additional observations from a re-analysis of the deposited data

Results flagged for a closer look

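Outside the cells that the authors kept, 72 barcodes of the raw counts also passed the cDC1 gate, a signal in data that the comparisons did not use. They were 6 and 26 in the *Csf1rfl/fl* tumors and 22 and 18 in the *Lyve1CreCsf1rfl/fl* tumors. Their median depth was 12873 UMIs with a range of 1575 to 41750, and 38 of the 72 had a hashtag count under 3 times that of the other tumor of the run, against 7 of the 254 kept cDC1. Summed, they had 1.95 UMIs of *Batf3*, 12.1 of *Irf8*, 4.40 of *Wdfy4* and 8.61 of *Naaa* per 10000. The macrophage and monocyte gene *Lyz2* was at 11.7. With these barcodes, and all barcodes with a hashtag majority as the denominator, cDC1 were 0.503% and 1.07% against 0.557% and 0.337%. What part of them were doublets was not tested.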

How the results depend on the processing

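The 4 tumors and the 28 and 26 UMIs of a gene such as *Ube2c* in the *Lyve1CreCsf1rfl/fl* tumors set the precision. The number of genes called between genotypes was 0, and it was 31 of 13368 with no filter on low counts (19 higher, 12 lower). *Cxcl2*, *Ccl3* and *Ccl5* were among these as higher and *Ube2c*, *Cenpf* and *Hmmr* as lower. The number of calls was 13, all higher, without cycling cells. *Cxcl2*, *Ccl3* and *Ccl5* were among the 13, as were *S100a8* and *S100a9*, which the gate limits and which are not read as results. With hashtag counts at least 3 times apart 1 gene was called, *Cxcl2* (edgeR adjusted p = 0.00186). Leaving out 1 tumor gave 20 to 29 calls, 25 without *Csf1rfl/fl* run 1, 26 without *Csf1rfl/fl* run 2, 29 without *Lyve1CreCsf1rfl/fl* run 1 and 20 without *Lyve1CreCsf1rfl/fl* run 2. There the lone tumor is assumed to vary like the pair of the other genotype. The cause of the higher counts was not tested.

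With the replicate block, which pairs the tumors of a run, 1 gene was called, *Cxcl2*, and the block changed no other call. The log2 ratio of *Cxcl2* ran from 0.23 to 2.86 over 15 alternatives. That of *Ccl3* was -0.070 without the 11 cells with *S100a8* and *S100a9*, an alternative chosen after seeing the data, and positive in the other 14, with 2.89 without *Csf1rfl/fl* run 1, 1.11 without *Csf1rfl/fl* run 2 and 0.76 without cells marked by Scrublet. *Ube2c* ran from -2.07 to -1.59 and *Cenpf* from -2.25 to -1.69 over the 14 alternatives in which each was tested, with adjusted p from 0.000231 to 0.892 and from 0.000589 to 0.999. The log2 ratio of the cDC1 share of kept cells ran from -1.06 to 0.13 when 1 tumor was left out, positive only without *Csf1rfl/fl* run 2. That of the cycling share was 0.12 without cells marked by Scrublet.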
